A study of Homo sapiens with 6 samples.

Results

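The block studied is the distal long arm of human chromosome 8, from 70 Mb to the end of the chromosome in hg19 (chr8:70000001-146364022), as seen in strand-specific END-seq peaks of HCT116 cells treated with camptothecin (CPT). Its members are all peaks that start in it, and the block was chosen by its raised peak density, so density is given as a description without a test. The 8 peak lists held 196421 such peaks of 4267178 in all, which is 4.60% of the series and 66.5% of the peaks on chromosome 8. The other 99092 peaks on chromosome 8 served as the comparison.

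HCT116 is an epithelial colorectal carcinoma line. Cells were left untreated (Ctrl) or received 10 µM CPT for 10 min (CPT10) or 20 min (CPT20), with 2 biological replicates per condition, and the sample names give 10 and 20 as µM where the protocol and the design text give minutes. Murine pre-B cells were added to the samples as a spike-in. Each of the 4 treated libraries has 1 forward and 1 reverse peak list, while the Ctrl libraries served the authors as input for peak calling and have no lists here, so the block could not be set against untreated cells. Where 4 values are given in a row they are those of CPT10 replicate 1, CPT10 replicate 2, CPT20 replicate 1 and CPT20 replicate 2, in that order.

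Topoisomerase I (Top1) cuts a single DNA strand, lets it swivel and reseals it, and CPT traps the enzyme on the cut strand, where colliding polymerases and replication forks can turn the lesion into a double-strand break (DSB). END-seq ligates an adapter to free DNA ends and reads away from them, so a DSB with both ends captured gives reverse-strand reads to the left and forward-strand reads to the right. The distal long arm of chromosome 8 carries MYC, and its gain is a familiar feature of colorectal tumours and of published HCT116 karyotypes. Copy number was not measured here. The lists call a peak against a single expected height for the whole genome, so more DNA copies of a region and more breaks per copy cannot be told apart in them.

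Peak density in the block was above the rest of chromosome 8 in each of the 4 libraries. In CPT10 replicate 1 it was 820 peaks per Mb of called sequence in the block against 491 in the rest, a ratio of 1.67. CPT10 replicate 2 had 663 against 377 (ratio 1.76), CPT20 replicate 1 had 683 against 412 (ratio 1.66), and CPT20 replicate 2 had 419 against 202 (ratio 2.07). The last library, which had the fewest peaks, thus had the highest ratio. Forward and reverse lists taken alone gave ratios between 1.60 and 2.10. Over the 2 replicates of a time the mean ratio was 1.71 with an SD of 0.0636 for CPT10 and 1.86 with an SD of 0.290 for CPT20. On the log2 scale the ratio at 20 min minus that at 10 min was 0.11, where the SD between replicates was 0.05 for CPT10 and 0.22 for CPT20. Without CPT20 replicate 2 this difference was -0.046, and with each list limited to its 286491 highest peaks it was -0.037.

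**Figure D1:**
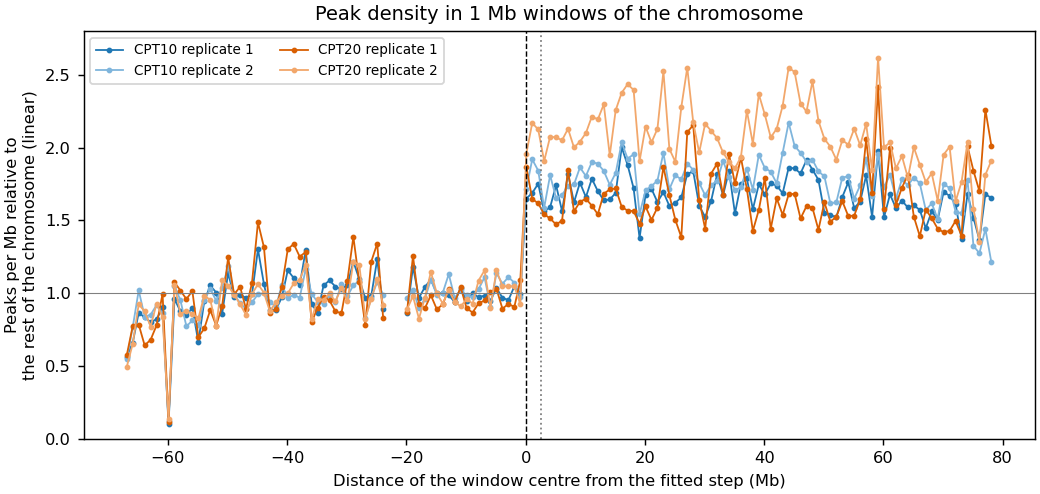
Peaks per Mb of 1 Mb windows of chromosome 8, divided by the density of the rest of the chromosome in the same library, against the distance of the window centre from the fitted step in Mb; each line is a library. The dashed line marks the step at 67.4 Mb and the dotted line 70 Mb. Most windows left of the step lie near 1, with a dip in the window from 7 to 8 Mb (48.4, 46.3, 48.4 and 27.4 peaks per Mb) and low values at the chromosome end, and all 4 lines are raised to the right, where the whole block has ratios of 1.66 to 2.07.

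The density step lay before the 70 Mb limit that defines the block. When 2 constant levels were fitted to the square root of peak counts of 100 kb bins along chromosome 8, the best position was 67.3 Mb in 3 libraries and 67.4 Mb in CPT20 replicate 2, with both strands summed. The 8 single-strand lists gave a median of 67.4 Mb and a range from 66.2 Mb (CPT20 replicate 1, forward) to 68.9 Mb (CPT20 replicate 2, forward). The 3 Mb on either side of 67.4 Mb differed in level, though means over 3 Mb cannot show how abrupt the step was. The fit also chose the position for its difference in level. The bin just before 67.4 Mb held 63, 63, 56 and 25 peaks in the 4 libraries. The bin just after it held 95, 75, 93 and 42. In CPT10 replicate 1 the 30 bins below held 50 ± 7.69 peaks and the 30 bins above 88.1 ± 11.9 (SD over bins). CPT10 replicate 2 went from 40.4 ± 7.89 to 71.7 ± 10.7, CPT20 replicate 1 from 40.9 ± 9.16 to 72.1 ± 15.7, and CPT20 replicate 2 from 21.0 ± 4.05 to 44.6 ± 8.36.

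**Figure D2:**
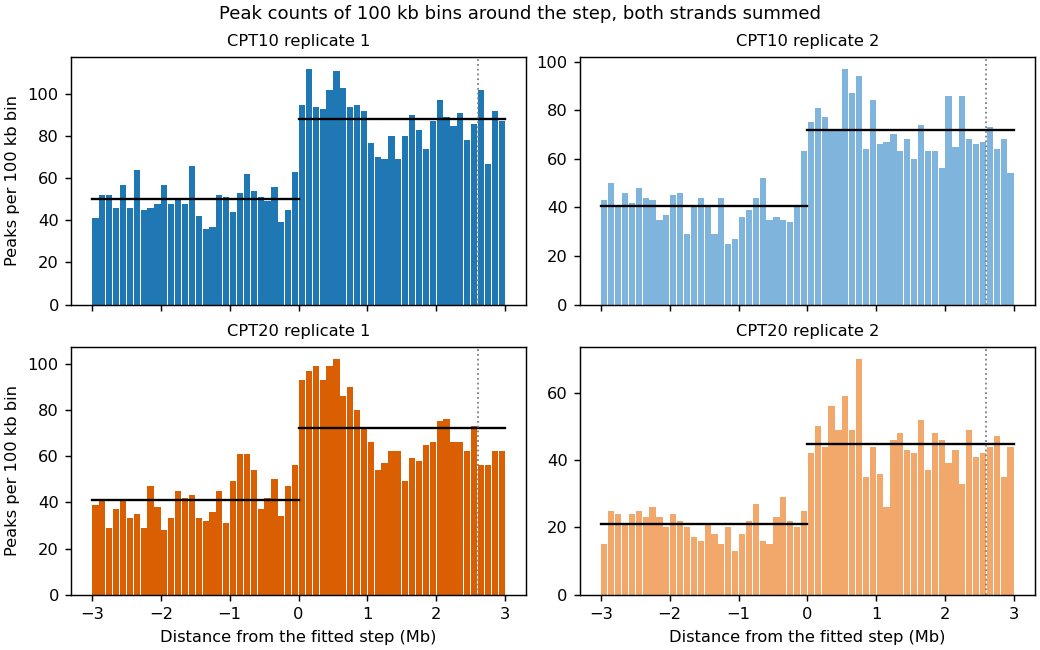
Peak counts of 100 kb bins (bars, both strands summed) from 3 Mb below to 3 Mb above the fitted step, 1 panel per library with its own vertical scale. Black lines are the means of the 30 bins on each side (50 and 88.1 in the top left panel, 21.0 and 44.6 in the bottom right one), and the dotted line marks 70 Mb.

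The genes around the step encode proteins of unrelated kinds. Left of the median fitted position, 67.4 Mb, lies RRS1, a ribosome assembly factor whose gene spans chr8:67341249-67342968. ADHFE1, an alcohol dehydrogenase of the iron-containing type at chr8:67344727-67381142, also lies left of that position. Right of it lie VXN (chr8:67404561-67430759), MYBL1, a MYB family transcription factor (chr8:67474410-67526482), and VCPIP1, a deubiquitinase (chr8:67540722-67579466). The readthrough transcript unit ENSG00000285791 spans that position. Fitted positions ranged from 67.3 to 67.4 Mb with strands summed and from 66.2 to 68.9 Mb in single-strand lists. The side of the step on which these genes lie is therefore not settled.

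At the 70 Mb limit the density did not change in step. The last Mb before it held 860, 694, 666 and 430 peaks, and the first Mb after it 767, 598, 635 and 386. From 67 to 70 Mb, outside the block by rule, the density was already 1.70, 1.83, 1.71 and 2.08 times that of the rest of the chromosome, whereas from 47 to 67 Mb it was 0.998, 1.02, 0.963 and 0.993 times. The rest used for comparison therefore includes 3 Mb of raised density. With the block begun at 67.4 Mb the mean log2 ratio was 0.89, against 0.83 with the block begun at 70 Mb.

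Within the block the density was sustained to the end of the arm. In CPT10 replicate 1, the ratio to the rest of the chromosome was 1.69 from 70 to 95 Mb, 1.72 from 95 to 120 Mb and 1.61 from 120 Mb on. In CPT20 replicate 2 it was 2.16, 2.15 and 1.91 over the same segments. CPT20 replicate 1 alone was highest in the last segment, with 1.62, 1.66 and 1.70.

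The block holds 76 windows of 1 Mb with at least 500 kb of called sequence, and the partial last window was left out. Each of these 76 windows had a higher density than the highest window below 67 Mb in 3 libraries, and 64 of 76 did in CPT20 replicate 1. At least 1.5 times the genome-wide median window was reached in all 8 lists by 25 of the 76 windows, against 1.86% of all 2846 windows. With the strands of a library summed, 60 of the 76 windows (78.9%) reached it in all 4 libraries, against 4.04% of all windows. Since density chose the block, nothing is read from these shares. Elsewhere, 26 windows of chromosome 17, 22 of chromosome 10 and 3 of the rest of chromosome 8 met the summed rule. Without CPT20 replicate 1 the count over single-strand lists was 38 in place of 25.

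The highest windows of the block were of 2 kinds. The window from 126 to 127 Mb, with NSMCE2 (a SUMO ligase of the SMC complex that takes part in DNA repair), WASHC5 and SQLE (squalene epoxidase of sterol synthesis), held 970, 737, 995 and 530 peaks per Mb. The windows from 111 to 112 Mb and from 112 to 113 Mb hold no start of a protein-coding gene. The former had 914, 818, 691 and 516 peaks per Mb and the latter 912, 758, 693 and 510. Their GC content was 34.5%, near the lowest of the block (34.3%). The window from 95 to 96 Mb, with NDUFAF6, RAD54B and CDH17, and that from 90 to 91 Mb, with RIPK2 and OSGIN2, completed the highest 5.

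The lowest window was that from 143 to 144 Mb, with TSNARE1, ADGRB1 and GML, at 670, 480, 700 and 274 peaks per Mb and a GC content of 54.9%. It was followed by the windows from 136 Mb (KHDRBS3), 86 Mb (ATP6V0D2, CA3 and CA13), 140 Mb (the potassium channel gene KCNK9) and 134 Mb (ST3GAL1, SLA and NDRG1).

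The order of windows by density was shared by 3 libraries and less by CPT20 replicate 1. Over the 76 windows, Spearman's rho of density between CPT10 replicates 1 and 2 and CPT20 replicate 2 was 0.70 to 0.79, and that of CPT20 replicate 1 with the other libraries 0.11 to 0.32. Density against GC content gave rho of -0.49, -0.66, 0.33 and -0.68 in the 4 libraries. Against the number of protein-coding gene starts per window the values were -0.14, -0.26, 0.41 and -0.22. CPT20 replicate 1 thus leaned towards gene-rich, GC-rich windows and the other libraries towards AT-rich ones. These are descriptions over windows of shared libraries, and the part of library preparation in them was not tested.

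Among taller peaks the block stood further above the rest, up to a point. The summit height, in fragments over the summit, was recovered from the deposited fold values. In the replicate 2 library of CPT10 the density ratio was 1.76 over all peaks, 2.34 for summits of at least 8 fragments and 3.04 for at least 15, and in that of CPT20 it was 2.07, 2.44 and 3.10. CPT10 replicate 1 reached 1.87 at 8 fragments and 2.5 at 20, and CPT20 replicate 1 reached 1.90 and 2.48. The tallest peaks of the replicate 2 libraries departed from this. Expected heights were 0.727 to 0.864 fragments in the replicate 2 lists and 1.20 to 1.44 in the replicate 1 lists. A given height is thus a larger fold in replicate 2, and the cut-offs are not comparable between replicates. At 30 fragments or more the block held 31 peaks against 43 in the rest for CPT10 (density ratio 0.634) and 20 against 37 for CPT20 (ratio 0.476). In the replicate 1 libraries it held 717 against 270 (ratio 2.34) and 303 against 118 (ratio 2.26). Height is tied to the measure that chose the block, so these ratios carry no test.

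**Figure D3:**
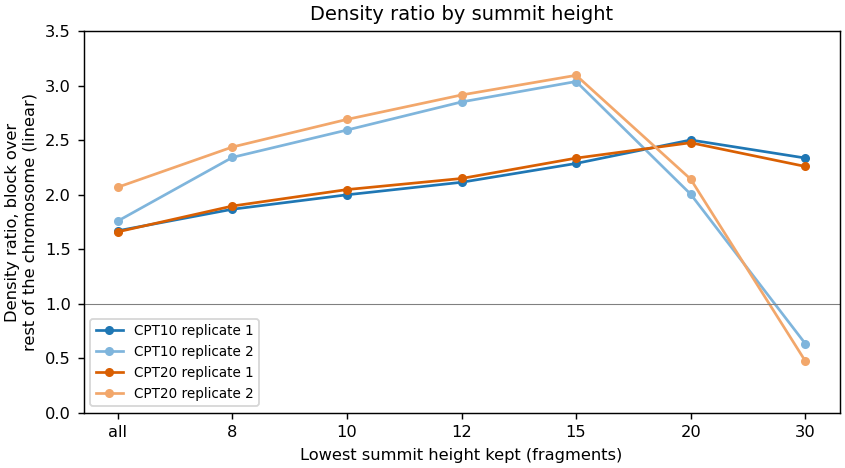
Ratio of peak density in the block to that in the rest of chromosome 8 (linear axis) against the lowest summit height kept, in fragments, for each library. The ratio rises to 3.04 and 3.10 at 15 fragments in the replicate 2 libraries and then falls to 0.634 and 0.476 at 30, where few peaks are left. The replicate 1 libraries stay above 2.2 at 30. Heights were not scaled to the expected height of each list.

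Strand was not used to choose the block. Over the whole block 43.6%, 50.3%, 50.02% and 49.8% of peaks were on the forward strand in the 4 libraries. The rest of the chromosome had 41.3%, 49.7%, 49.8% and 49.0%. CPT10 replicate 1 was low in forward peaks in both parts. The mean difference between block and rest was 0.990 percentage points ± 0.957 (SD, n = 4), higher in the block in 4 of 4 libraries (two-sided exact sign-flip permutation p = 0.13, the smallest that 4 libraries allow, and 0.156 after Benjamini-Hochberg adjustment over 5 tests). In the 3 Mb before 70 Mb, which count as rest, the forward share was 37.3%, 43.3%, 44.2% and 37.6%. With the block begun at 67.4 Mb the mean difference was -0.059 points (exact permutation p = 1). It was 0.53 points without CPT10 replicate 1 and 0.40 points against the other chromosomes (exact permutation p = 0.75).

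Within the block, the balance of strands swung from window to window, and the same windows leaned the same way in all libraries. The lowest forward share of a window was 31.7%, 33.7%, 38.6% and 25.9% in the 4 libraries and the highest 57.1%, 69.1%, 63.8% and 75.4%. The SD over windows was 5.12, 7.57, 5.58 and 10.3 points, where counting error alone gives 1.74, 1.96, 1.93 and 2.47. Pearson's r between libraries over the 76 windows was 0.898 to 0.961. The share lay above the library's own median in all 4 libraries in 29 windows and below it in all 4 in 27. Such swings were also present in the rest of the chromosome, with an SD of 6.27 to 12.5 points over 67 windows and an r of 0.827 to 0.902 between libraries, so they are not particular to the block.

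Windows were ranked by the smallest margin from the library's own median over the 4 libraries. The most forward window by this rule was that from 94 to 95 Mb, which holds TRIQK, PDP1 and TMEM67. It had 510, 466, 553 and 389 forward peaks in the 4 libraries against 383, 246, 314 and 127 reverse ones. The window from 98 to 99 Mb (MATN2, MTDH and LAPTM4B) was next, with forward shares of 56.7%, 69.1%, 63.1% and 73.8%. The window from 106 to 107 Mb, with no start of a protein-coding gene, reached 55.1%, 65.4%, 59.0% and 70.4%. Windows with and without such a start thus both stood among the most forward.

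The most reverse window was that from 131 to 132 Mb, which contains ASAP1, a regulator of the small GTPase ARF. It had 247, 221, 288 and 94 forward peaks against 533, 435, 459 and 269 reverse ones. The window just before it leaned the other way, with forward shares of 49.4%, 60.2%, 58.9% and 65.9%. Changes of side within 1 Mb were common. Windows on 1 side in all 4 libraries formed 34 runs, of which 17 were single windows, and the longest runs on either side were of 4 windows. Adjacent windows were correlated at r = -0.13 to -0.05.

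**Figure D4:**
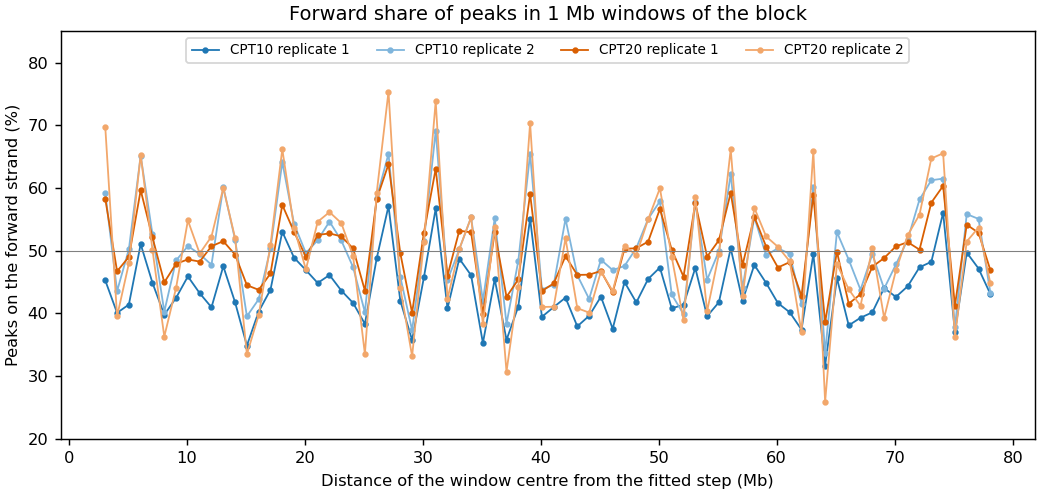
Percent of peaks on the forward strand in the 76 windows of 1 Mb of the block, against the distance of the window centre from the fitted step in Mb; each line is a library and the grey line marks 50%. The 4 lines rise and fall together, with the widest swings in CPT20 replicate 2 (25.9% to 75.4%) and the lowest level in CPT10 replicate 1.

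The pattern held outside protein-coding genes, in a set that still includes peaks in non-coding genes. Peaks outside protein-coding genes gave window shares that correlated between libraries at r = 0.862 to 0.946. The net number of plus-strand genes per window had a Spearman's rho of 0.00 to 0.12 with the forward share of all peaks. With that of peaks outside protein-coding genes it was -0.05 to 0.07. At the level of genes a smaller lean was present. Peaks within plus-strand genes of the block were 46.9%, 53.1%, 52.7% and 52.4% forward in the 4 libraries, against 41.8%, 48.9%, 48.5% and 48.2% within minus-strand genes. The difference was 4.44 points ± 0.413 (SD, n = 4), in the same direction in 4 of 4 libraries (exact sign-flip permutation p = 0.13, adjusted p = 0.156). In the rest of the chromosome the difference was 3.63 to 6.90 points.

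The order of close, non-overlapping neighbours of opposite strand was near balance in the block. Among non-overlapping neighbours under 150 bp apart, the order that a DSB gives, reverse then forward, numbered 1744, 1192, 1257 and 465 in the 4 libraries, against 1804, 1164, 1191 and 444 for the opposite order. The ratios were 0.967 (95% Wilson interval 0.905 to 1.03), 1.02 (0.945 to 1.11), 1.06 (0.975 to 1.14) and 1.05 (0.920 to 1.19). All 4 intervals included 1, so among these neighbours an excess of the DSB order was not detectable over the whole block at this depth. Overlapping pairs, which can also come from a DSB, were left out of this count. The rest of the chromosome gave 1.03 (0.917 to 1.158), 1.21 (1.04 to 1.40), 0.998 (0.868 to 1.15) and 1.525 (1.15 to 2.02), and 2 of its intervals lay above 1. The intervals of both parts cover counting error only, as duplicates were kept and neighbouring peaks are not independent. Nothing is read from this contrast of intervals. The log2 ratio was lower in the block in 3 of 4 libraries, with a mean difference of -0.20 ± 0.264 (SD, n = 4, exact sign-flip permutation p = 0.25, adjusted p = 0.25). The difference was -0.08 without CPT20 replicate 2 and -0.33 with equal list lengths.

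A smaller share of the block's peaks lay near gene starts in each library, and their median width was larger. Within 5 kb of the start of a protein-coding gene lay 4.35%, 3.97%, 4.98% and 4.59% of the block's peaks in the 4 libraries, and 5.33%, 4.82%, 6.11% and 6.01% of those in the rest. The difference was -1.10 points ± 0.246 (SD, n = 4), lower in 4 of 4 libraries (exact sign-flip permutation p = 0.13, adjusted p = 0.156). The 76 windows of the block hold 340 gene starts and the 67 windows of the rest 361, so the block also had fewer starts per window. The part of gene start density in the smaller share was not tested. Median peak width was 222, 198, 240 and 215 bp in the block against 200, 183, 216 and 198 bp, a difference of 19.5 bp ± 4.20 (SD, n = 4) with the same p-values. In a list with a single expected height, width moves with peak height, and its part was not tested. Neither difference could pass a threshold of 0.05 with 4 libraries. Within the block the gene start share at 20 min minus 10 min was 0.626 points (exact permutation p = 0.33, the smallest possible).

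A site was counted where the forward peak nearest to a reverse peak overlapped it or followed it at less than 150 bp. A DSB gives this arrangement, but pairs of the opposite order were not counted as a background. Each site is therefore a candidate and not an established break. The block held 7139, 4326, 5436 and 1757 such sites in the 4 libraries. Per Mb this was 2.84, 2.93, 2.77 and 3.54 times the rest of the chromosome, above the ratios of single peaks in each library. Pairs need a peak on both strands, so their number depends on both densities.

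Few sites recurred in the other replicate. At 10 min 434 of 7139 sites of replicate 1 (6.08%) overlapped a site of replicate 2, and 437 of 4326 sites of replicate 2 (10.1%) overlapped one of replicate 1. At 20 min the counts were 236 of 5436 (4.34%) and 243 of 1757 (13.8%). In the rest the shares of replicates 1 and 2 were 4.16% and 7.08% at 10 min, and 4.22% and 17.2% at 20 min. After merging, the block had 421 replicated sites at 10 min and 220 at 20 min, against 90 and 70 in the rest. Per Mb this was 4.12 and 2.77 times the rest. Denser sites overlap more often by placement alone, and its part in these counts and ratios was not tested. With every list limited to the length of the shortest the order of the times turned, with 102 replicated sites at 10 min and 129 at 20 min in the block.

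Replicated sites of both times that overlapped formed 49 persistent clusters in the block, with 367 transient ones (replicated at 10 min alone) and 165 late ones (replicated at 20 min alone), against 27, 62 and 42 in the rest. Of the replicated sites, 12.8% at 10 min and 25% at 20 min overlapped one of the other time, against 31.1% and 40% in the rest. The classes depend on what each list admits and on overlaps by placement alone, whose part was not tested. With equal list lengths there were 65 transient and 92 late clusters, so late ones then outnumbered transient ones. Of the 367 transient clusters, 296 held no site in either CPT20 library, 55 held one in CPT20 replicate 1 alone and 15 in CPT20 replicate 2 alone. Of the 165 late clusters, 102 held no site in either CPT10 library, 30 held one in CPT10 replicate 1 alone and 24 in CPT10 replicate 2 alone.

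Persistent clusters of the block had the largest share at gene starts. A midpoint within 5 kb of the start of a protein-coding gene was found for 21 of the 49 (42.9%, with a 95% Wilson interval from 30% to 56.7%), for 28 of the 367 transient clusters (7.63%, 5.33% to 10.8%) and for 30 of the 165 late clusters (18.2%, 13.0% to 24.8%). Of the 21 persistent clusters near a start, 16 were downstream of it. Bodies of protein-coding genes held 71.4%, 46.3% and 57.0% of the 3 classes. The 11 windows with no gene start contained 2 persistent, 70 transient and 22 late clusters, and the 18 windows with at least 7 gene starts contained 21, 86 and 61. In the rest of the chromosome the shares within 5 kb were 18.5%, 22.6% and 31.0%. Bodies of protein-coding genes there held 25.9%, 61.3% and 64.3% of the 3 classes. The 27 persistent clusters of the rest thus lay mostly outside genes. Their median distance from a gene start was 673453 bp, against 7304 bp for those of the block. The intervals cover counting error only, as duplicates were kept and neighbouring peaks are not independent, and the differences between classes or regions were not tested.

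**Figure D5:**
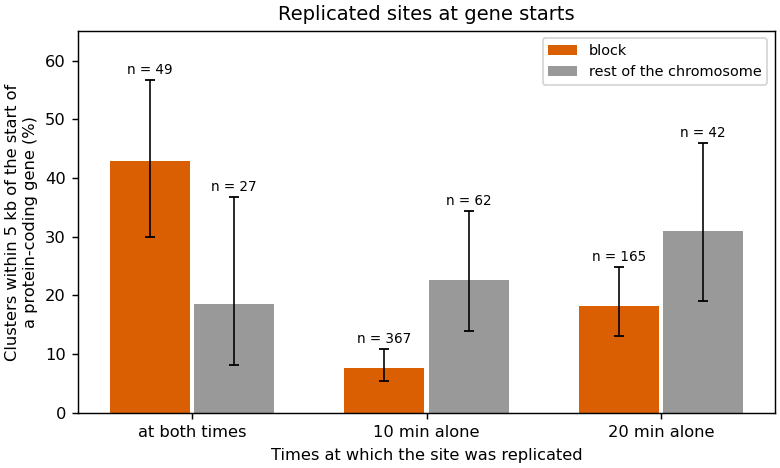
Percent of clusters with a midpoint within 5 kb of the start of a protein-coding gene, in the block (orange) and the rest of chromosome 8 (grey), for sites replicated at both times (persistent), at 10 min alone (transient) and at 20 min alone (late). Bars start at 0, error bars are 95% Wilson intervals and n is the number of clusters; in the block the share is 42.9%, 7.63% and 18.2%.

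Persistent clusters were gathered in a few windows. The 4 richest windows held 23 of the 49. The window from 94 Mb had 8, in CIBAR1, RBM12B, PDP1 and the transcript ENSG00000254057. The window from 126 Mb had 6, in TRIB1, NSMCE2 and LINC02964. The window from 101 Mb had 5, all in PABPC1 and YWHAZ, and that from 128 Mb had 4, in MYC, PVT1 and the PCAT1 and CASC19 loci. Persistent clusters occupied 21 of the 76 windows, late ones 60 and transient ones 75. These classes had 49, 165 and 367 clusters, and the part of these numbers in the spread was not tested.

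The 6 persistent clusters with the strongest sites all lay in protein-coding genes. Values are the −log10 q of the weaker peak of the best pair in each library. The cluster at chr8:94929163-94936522, in an intron of PDP1 (a phosphatase that activates the pyruvate dehydrogenase complex), had 49.6, 15.8, 33.5 and 17.2. It was among the 8 strongest of the block in every library. The cluster at chr8:126441934-126453223 covered all of TRIB1, a pseudokinase gene, and had 36.4, 11.9, 31.7 and 19.9. PABPC1, which encodes the cytoplasmic poly(A)-binding protein, held a cluster at chr8:101725995-101731479 with 32.6, 11.9, 20.0 and 13.2.

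RPL7, a protein of the large ribosomal subunit, held a cluster at chr8:74203536-74206574 with 22, 17.1, 28.9 and 12, and its midpoint lay 2969 bp downstream of the gene's own start and at -1782 bp from that of RDH10. YWHAZ, the 14-3-3 zeta adaptor, held one at chr8:101958769-101963610 with 19.8, 27.5, 31.7 and 21.3. The cluster at chr8:86572066-86573128 lay in an exon of REXO1L1 and had 32.6, 30.8, 27.9 and 27.2, ranking first in both replicate 2 libraries. REXO1L1 belongs to a family of near-identical copies, so reads counted there may come from other copies and this cluster is uncertain.

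The strongest transient clusters were weaker than these. One at chr8:94729827-94730524 in an intron of CIBAR1, a BAR-domain protein of cilia, had 13.1 and 5.50 in CPT10 replicates 1 and 2, and a site of 7.02 was also present in CPT20 replicate 1. One at chr8:88180256-88180873 lay deep in CNBD1, 301922 bp from its start, with 11.1 and 6.40. One at chr8:115438164-115438745 was in no annotated gene, and the nearest gene start was that of CSMD3 at -989287 bp, with 12.1 and 5.46. A cluster at chr8:145011897-145013643 in PLEC (plectin, a cytoskeletal linker) had 10.9 and 5.46 at 10 min and 36.4 in CPT20 replicate 1 but no site in CPT20 replicate 2, so the class rested on that library.

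Among the late clusters the strongest, at chr8:117883789-117884774, lay in an intron of RAD21, a cohesin subunit, 2733 bp downstream of the start, with 18.6 and 10.9 in CPT20 replicates 1 and 2. CPT10 replicate 1 also had a site there, with 9.94. The next was in an exon of the non-coding gene MINCR (chr8:144363054-144363404, 15.1 and 8.71), and CPT10 replicate 1 had a site of 5.46. A cluster at the first bases of LINC02964 (chr8:126659795-126661417, 13.1 and 10.9) had sites of 10.1 and 6.45 in both CPT10 libraries, which did not make a replicated site. EPPK1, the epiplakin gene, held one at chr8:144940261-144941442 with 21.0 and 6.73, and CPT10 replicate 1 had a site of 21.0 as well. All 4 named late clusters thus had a site in at least 1 library at 10 min.

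Of the 348 protein-coding genes of the block, 120 held the midpoint of a replicated site at 10 min (34.5%), against 8.89% of all 20098 such genes, and 91 at 20 min (26.1%), against 7.92%. The sites were built from the peaks that chose the block, so nothing is read from these shares. Both times were shared by 57 genes. Counting a site within 5 kb of the gene start instead gave 54 genes at 10 min (15.5%), against 5.56% of all genes, and 52 at 20 min (14.9%), against 6.81%.

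The 5 gene groups taken from the block differed in how many members held a replicated site at the gene start. Genes of ribosome, translation and transcription held a site in 11 of 13 members and at the start in 9. Over all 348 protein-coding genes of the block the counts were 154 and 80. The groups are small and were chosen with earlier results of these data known, so nothing is read from differences between them. RPL8 held sites at its start at both times, with 5, 5, 2 and 7 peaks over 2823 bp in the 4 libraries. ELOC (elongin C), EEF1D (a subunit of the elongation factor that recharges eEF1A) and PABPC1 also held sites at the start at both times. PUF60, a splicing factor, did so at 20 min alone. POLR2K, an RNA polymerase subunit, and HSF1, the heat shock transcription factor, held none. The median density of the group was 1.12, 0.875, 1.21 and 0.758 peaks per kb, where the median of all genes of the block was 0.886, 0.674, 0.794 and 0.442.

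Genes of genome maintenance and replication held a site in 7 of 10 members and at the start in 3. Among all 348 genes of the block the counts were 154 and 80. ATAD2, an ATPase with a bromodomain, had 5 replicated sites at 10 min and 4 at 20 min in its body. RAD21 had 1 and 2, with sites at the start at both times. NBN, of the MRN complex that senses DSBs, had 1 and 1, and so had TOP1MT, the mitochondrial topoisomerase I. CCNE2 (cyclin E2) had 2 at 10 min and none at 20 min. RAD54B, E2F5 and RRM2B held none.

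Genes of growth and signalling held a site in 9 of 11 protein-coding members and at the start in 5, against 154 and 80 of the block's 348. MYC had 2 sites at 10 min and 2 at 20 min, which formed persistent clusters at chr8:128750532-128751737, in an exon 3455 bp downstream of the start, and at chr8:128752603-128755470, over the last part of the gene. The first had −log10 q of 15.1, 7.44, 7.02 and 1.91 and the second 16.2, 10.7, 14.2 and 8.71. The downstream cluster was thus the stronger one in every library. PVT1, the non-coding gene next to MYC, held a persistent cluster at its start (chr8:128806578-128807374) with 10.9, 2.19, 9.74 and 4.07. MYC itself had 15, 10, 10 and 15 peaks over 7518 bp, and its density of 2.00, 1.33, 1.33 and 2.00 peaks per kb was above the median gene of the block in each library. STK3, a Hippo pathway kinase, had 5 sites at 10 min and 3 at 20 min over 571600 bp, and TPD52 and NDRG1 had none.

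Tissue-restricted genes, most of them very long, held a site in 8 of 14 members and none at the start. The block's 348 genes held one in 154 and at the start in 80. CSMD3, a gene of the nervous system that spans 1214012 bp, had 6 replicated sites at 10 min and none at 20 min. RALYL, over 739058 bp, had 4 and 1. TG (thyroglobulin), KCNQ3, SLC30A8, FABP4 and the adrenal genes CYP11B1 and CYP11B2 had none. The median density of the group was 0.754, 0.613, 0.603 and 0.405 peaks per kb, with the lowest value in every library among the 5 groups. Epithelial and cytoskeletal genes, which include ESRP1, GRHL2 and PLEC, held a site in 5 of 6 members and none at the start. Gene length differed between groups, with medians of 23.1 kb for the translation group and 208 kb for the tissue-restricted one, and its part in the counts was not tested.

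The densest genes of at least 10 kb included some with persistent clusters and some without. RBM12B, an RNA-binding protein gene at chr8:94740383-94753245, had 20, 19, 23 and 15 peaks, or 1.55, 1.48, 1.79 and 1.17 per kb. YWHAZ had 62, 49, 59 and 36 peaks, or 1.68, 1.33, 1.60 and 0.977 per kb, and RNF139, a ubiquitin ligase of the endoplasmic reticulum, 1.82, 1.24, 1.60 and 1.2 per kb. RPL30, PABPC1, TRMT12 (a tRNA-modifying enzyme), ENY2 (a subunit of the SAGA coactivator) and CIBAR1 followed. TRMT12 held no replicated site, although its density was 1.41, 0.971, 1.32 and 0.794 per kb. CIBAR1 and RBM12B lie side by side and overlap, and so peaks in the shared stretch count for both.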

How the data were processed

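END-seq peaks of HCT116 cells were analysed on hg19. Per the study's methods and the submitters' processing notes, the authors trimmed reads with Trim Galore, aligned them with Bowtie2, filtered them with SAMtools (duplicates kept) and called peaks with MACS2 for each replicate and strand separately, without local background, at a q-value of 0.05 and with a control library as input. The deposited lists give a score per peak, a fold (summit over expected height, a linear ratio), and −log10 p-values and −log10 q-values. In these lists the expected height was 0.727 to 1.44 fragments and the lowest summit 4 to 6 fragments, and a Poisson tail with that height gave the deposited −log10 p to within 1.1e-04 for heights up to 50. Read totals were not used here.

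Densities are per Mb of called bases (76.0 Mb in the block, 66.9 Mb in the rest of chromosome 8). Genes are from GENCODE release 44 mapped to GRCh37. Sites and replicated sites followed the study's distance and overlap rules with an overlap of at least 1 bp, without its blacklist and read-count steps. The classes were set by the presence of a replicated site at each time. In the study they were set by enrichment of reads over untreated cells, so classes of the same name and their numbers are not comparable. Libraries were compared by two-sided exact permutation tests with Benjamini-Hochberg adjustment. The step fit and the pairing were tested on simulated data. Named clusters have the best worst rank over the libraries that define a class (6 persistent, 4 transient, 4 late). Named windows are the 5 highest and 5 lowest by mean rank of density over the lists, named dense genes the 8 with the best worst rank of peaks per kb, and the 5 gene groups were listed by function. The windows named for their strand balance, and the rich persistent windows, were picked after their values were seen. The members and lists were chosen with earlier results of these data known. Alternatives were stricter −log10 q, equal list lengths, other comparison regions, bins, windows, distances and overlaps, and leaving out a library. Python 3.11.15, numpy 2.4.6, pandas 2.3.3 and scipy 1.17.1 were used.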

Additional observations from a re-analysis of the deposited data

How the results depend on the processing

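Of 121 values of 17 results recomputed under alternatives, 84 stayed the same, 34 moved and 3 changed sign. Tested results stayed the same if they kept their direction and their side of the threshold. The density ratio and the step had to stay within the spread, and counts within a fixed factor of the reported count. Sizes differed among the 84, as the forward share difference of 0.990 points was 3.32 at a −log10 q of at least 10. The gene start share difference of -1.10 points was -3.49 against other chromosomes and -0.19 within 1 kb. With 4 libraries no test could reach 0.05, so its side of the threshold carries no information. The sign changes were those of the time difference of the density ratio without CPT20 replicate 2 (-0.046) and with equal list lengths (-0.037), and of the forward share difference with the block begun at the fitted step (-0.059 points). The mean log2 density ratio of 0.83 was 1.05 at a −log10 q of at least 3 (1.0481), 1.41 at 10 and 1.05 with equal list lengths (1.0476), and ranged from 0.76 to 0.87 when a library was left out, while the time difference then ranged from -0.046 to 0.27. The step stayed at 67.3 to 67.5 Mb. Raised windows numbered 51 of 76 at a −log10 q of 3, 53 at 10, 50 with equal lists, 65 at the lower threshold tried and 0 at 2 times the median, 39 of 153 windows of 500 kb, 60 with strands summed, and 25 to 38 when a library was left out. Replicated sites at 10 and 20 min numbered 144 and 128 at a −log10 q of 3, 10 and 15 at 10, 102 and 129 with equal lists, 254 and 145 for overlapping peaks alone, and 649 at 10 min under 300 bp. Persistent, transient and late clusters numbered 32, 110 and 92 at 3, 7, 3 and 8 at 10, and 31, 65 and 92 with equal lists. Transient and late clusters numbered 214 and 104 for overlapping peaks alone, and transient ones 583 under 300 bp. Genes by their start numbered 54 and 52. With the replicate block, pairing same-numbered replicates, the time difference was 0.11, with -0.01 in replicate 1 and 0.23 in replicate 2. The cause of these changes was not tested. Classes need both replicates, so none could be left out, and at a −log10 q of 10 the order ratio could not be computed. Alternatives with summed strands, with a summit minimum of 8 fragments or leaving out a library for the step and the windows, and the tests of gene strand and of gene start share by time, were chosen after seeing the data. The lists admit summits from 4 to 6 fragments, and whether this bears on the low recurrence of sites was not tested.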
